A study of Homo sapiens with 24 samples.

Results

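The proteasome is a barrel-shaped protease that degrades ubiquitin-tagged proteins. Its subunits carry the PSM gene symbols. They were examined here in HEK 293T cells, a human embryonic kidney line, after knockdown or overexpression of *FMR4*, a long noncoding RNA transcribed from the *FMR1* locus. A gene was a member where an array probe set carried a single gene symbol made of PSM, a letter from A to G and a number. One probe set was kept for each gene, the one with the highest mean level, which gave 45 of the 18417 genes measured. The members comprised 7 subunits of the alpha ring, 7 of the constitutive beta ring, 5 inducible or tissue-specific core subunits, 5 ATPases, 12 non-ATPase subunits or partners of the regulatory particle, 5 activators and inhibitors, and 4 assembly chaperones. Proteasome genes with no such probe set, among them *PSMC5*, *PSMD7* and *PSMD13*, were not analysed here.

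Total RNA was hybridised to 24 Affymetrix Human Gene ST arrays, 3 in each of 8 groups. FMR4 siRNA and CTRL siRNA cells received 40 nM siRNA with Lipofectamine RNAiMAX. FMR4 pcDNA3.1 and CTRL pcDNA3.1 cells received 0.5 μg of the expression vector, with or without *FMR4*, with Lipofectamine 2000CD. RNA was taken from each of these 4 arms 6 h and 24 h after transfection. All groups are the same cell line and all were transfected, no untransfected cells were included, and the siRNA and plasmid arms differ in nucleic acid and reagent together. The level of *FMR4* itself was not read from the arrays here, so neither its loss nor its gain was checked.

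In the core particle, the outer alpha rings control entry to the barrel, and the inner beta rings hold the proteolytic sites. Among the beta subunits, PSMB5 carries the chymotrypsin-like activity, PSMB6 the caspase-like activity and PSMB7 the trypsin-like activity. Interferon-gamma induces PSMB8, PSMB9 and PSMB10, which take the place of PSMB5, PSMB6 and PSMB7 in newly built immunoproteasomes. The regulatory particle sits on the barrel, and its ATPases unfold substrates while its non-ATPase subunits bind and remove ubiquitin. When proteasome activity is short, the transcription factor NFE2L1 raises transcription of many subunit genes together, through antioxidant response elements in their promoters.

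The promoters of the members were read for short motifs. RefSeq (GRCh38.p14) listed 47 promoter windows for 39 of the 45 members, each running from 250 bases before to 50 bases after a transcription start. No window was listed for *PSMA7*, *PSMB1*, *PSMB6*, *PSMB7*, *PSMD4* and *PSMG3*. The core of the antioxidant response element, TGACNNNGC, was searched on both strands and stood in 14 of the 47 windows (29.8%), against 4687 of 35116 windows over all genes (13.3%). CCAAT, the letters of the NF-Y box, stood in 18 of the 47 (38.3%), against 12155 of all windows (34.6%). A pair of GAAA repeats with 2 bases between them, a core of interferon response elements, stood in 7 of the 47 (14.9%), against 1255 of all windows (3.57%). Those 7 windows belonged to *PSMA4*, *PSMB4*, *PSMB8*, *PSMB10*, *PSME1*, *PSME2* and *PSMG4*. Such matches describe the letters of a window and are not binding sites. The shares were not tested against each other, and base composition was not taken into account. Shown first are windows of *PSMD9* and *PSMB5*, the members called after *FMR4* knockdown. Capitals mark TGACNNNGC on either strand in *PSMD9* (chr12:121888540-121888839, plus strand) and CCAAT in *PSMB5* (chr14:23035171-23035470, minus strand), for which the upstream of its 2 listed windows is printed.
PSMD9: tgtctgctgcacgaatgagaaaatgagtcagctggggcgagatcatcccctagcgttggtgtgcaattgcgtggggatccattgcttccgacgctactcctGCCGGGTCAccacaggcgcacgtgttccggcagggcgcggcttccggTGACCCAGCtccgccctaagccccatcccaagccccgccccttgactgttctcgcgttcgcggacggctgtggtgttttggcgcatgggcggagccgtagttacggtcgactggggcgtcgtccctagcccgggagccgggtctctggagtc
PSMB5: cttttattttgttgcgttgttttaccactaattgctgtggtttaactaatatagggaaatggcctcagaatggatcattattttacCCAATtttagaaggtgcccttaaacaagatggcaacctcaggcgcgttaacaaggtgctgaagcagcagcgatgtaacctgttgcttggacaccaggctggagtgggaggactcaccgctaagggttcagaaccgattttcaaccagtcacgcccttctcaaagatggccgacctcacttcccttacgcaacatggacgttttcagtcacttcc

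Both matches in *PSMD9* lay upstream of its start, one on each strand, and neither *PSMB5* window held TGACNNNGC. The 40 bases around the GAAA pair are shown for 4 interferon-inducible members, with the match in capitals. *PSMB9*, also interferon-inducible, had no match to the GAAA pair in its promoter. The sequences come from chr16:67936847-67936886 (*PSMB10*, minus strand), chr6:32844027-32844066 (*PSMB8*, minus strand), chr14:24136184-24136223 (*PSME1*, plus strand) and chr14:24146614-24146653 (*PSME2*, minus strand). The match reads TTTCGCTTTC in *PSMB8* and *PSME1*, where it lies on the strand opposite to the gene.
PSMB10: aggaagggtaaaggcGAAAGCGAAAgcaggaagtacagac
PSMB8: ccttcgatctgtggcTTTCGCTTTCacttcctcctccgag
PSME1: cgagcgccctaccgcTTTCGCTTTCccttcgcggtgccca
PSME2: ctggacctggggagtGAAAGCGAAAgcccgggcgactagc

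The values are deposited log2 expression levels, where a difference of 1 is a doubling of signal. Array medians lay between 7.43 and 7.53, and no array of the 24 was left out. Of the genes HEK 293 cells are known to express, 8 of 9 were measured, and all lay above 6.00, the upper quartile of 429 olfactory receptor and keratin-associated protein genes that are mostly silent. Among them *NEFM*, a neurofilament gene, was 0.76 higher in FMR4 siRNA than in CTRL siRNA cells at 24 h (SE 0.13, adjusted p = 0.000385). It was also 0.67 higher in CTRL pcDNA3.1 than in CTRL siRNA cells at 24 h (adjusted p = 0.00264), and fell over time in CTRL siRNA (by 0.98), FMR4 pcDNA3.1 (by 0.81) and CTRL pcDNA3.1 cells (by 0.76). *KRT8*, *NEFL* and *EYA1*, 3 others of these 8 genes, were called in comparisons over time or between the controls and not after knockdown or overexpression. Their part in the results below was not tested. Of 9 measured markers of blood, liver, heart, astrocytes and fibroblasts, none was called in any comparison. *PTPRC*, *ALB* and *LUM* lay below 6.00, and the other 6 lay between 6.16 (*CD3E*) and 7.33 (*GFAP*), close to *PAX2* (7.39) and *LHX1* (7.50) among the HEK 293 genes. The level of 6.00 therefore does not separate expressed from absent genes.

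Of the 45 members, 41 lay above 6.00, which alone does not show that they were expressed. The 4 below it were *PSMA8*, a testis subunit (mean 4.28 over 24 arrays), *PSMB11*, the thymus subunit (5.76), *PSMB8* (5.32) and *PSMD5*, a regulatory particle chaperone (4.50). *PSMB9* was just above, at a mean of 6.72, and *PSMB10* was at 8.43. These levels come from different probe sets, so their order is not an order of transcript abundance. The standard deviation (SD) between arrays within a group, pooled over the 8 groups, had a median of 0.0691 over the members. It ran from 0.038 for *PSMD8* to 0.134 for *PSMB5*, and its median over all genes was 0.0997. With 3 arrays a group, the standard error of a difference had a median of 0.063 over the members.

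At 24 h, *PSMB5*, the chymotrypsin-like catalytic subunit, and *PSMD9* were higher in FMR4 siRNA than in CTRL siRNA cells. *PSMD9* encodes a chaperone that helps assemble the base of the regulatory particle. No other member passed an adjusted p under 0.05 in either direction. That is 2 of 45 members (4.44%), against 5.88% of all genes called in this comparison, so the share called was near that over all genes. The median difference was 0.004 both over the members and over all genes, and the median size of a difference, whatever its sign, was 0.0429 over the members and 0.0737 over all genes.

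The *PSMD9* levels were 8.64, 8.67 and 8.65 in FMR4 siRNA cells at 24 h, against 8.43, 8.39 and 8.38 in CTRL siRNA cells. Every FMR4 siRNA array was above every CTRL siRNA array. The difference was 0.26 (SE 0.055, 95% interval 0.14 to 0.37, 1.19-fold, adjusted p = 0.005). At 6 h the levels were 8.64, 8.51 and 8.64 in FMR4 siRNA cells and 8.59, 8.65 and 8.57 in CTRL siRNA cells, which overlapped, with a difference of -0.01. In the plasmid arms at 24 h they were 8.54, 8.61 and 8.47 with FMR4 pcDNA3.1 and 8.59, 8.61 and 8.44 with CTRL pcDNA3.1. The CTRL siRNA arrays at 24 h thus held the lowest *PSMD9* levels of the 24 arrays, and in CTRL siRNA cells the gene was 0.21 lower at 24 h than at 6 h (SE 0.055, adjusted p = 0.0121). In FMR4 siRNA cells the group mean was 8.59 at 6 h and 8.66 at 24 h, a change over time that was not called. The 24 h group means were 8.66 ± 0.016 in FMR4 siRNA and 8.40 ± 0.026 in CTRL siRNA cells, with both plasmid groups between them, at 8.54 in FMR4 pcDNA3.1 and 8.55 in CTRL pcDNA3.1 cells (SD, n = 3 each).

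The *PSMB5* levels were 11.59, 11.37 and 11.19 in FMR4 siRNA cells at 24 h, against 11.18, 10.95 and 10.95 in CTRL siRNA cells. The groups did not overlap, but the lowest FMR4 siRNA array was only just above the highest CTRL siRNA array. The difference was 0.35 (SE 0.1, 95% interval 0.14 to 0.56, 1.28-fold, adjusted p = 0.0427). The call was lost without FMR4 siRNA replicate 1 (difference 0.25, adjusted p = 0.259) or 2 (adjusted p = 0.106), and without CTRL siRNA replicate 2 (adjusted p = 0.196) or 3 (adjusted p = 0.165). It was also lost when only the 24 h arrays were fitted (adjusted p = 0.0666), when only the arrays compared were fitted (adjusted p = 0.0979), after quantile normalization (adjusted p = 0.0559) and with adjustment over all probe sets (adjusted p = 0.0853). By contrast, *PSMD9* was called in 16 of 16 alternatives, with adjusted p from 0.00212 to 0.0393.

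The 6 h levels of *PSMB5* were 11.30, 11.32 and 11.10 in FMR4 siRNA cells and 11.37, 11.39 and 11.14 in CTRL siRNA cells, a difference of -0.06. At 24 h they were 11.12, 11.31 and 10.90 with FMR4 pcDNA3.1 and 11.08, 11.11 and 11.07 with CTRL pcDNA3.1, a difference of 0.02. Between 6 and 24 h *PSMB5* differed by -0.27 in CTRL siRNA, -0.23 in FMR4 pcDNA3.1 and -0.25 in CTRL pcDNA3.1 cells, and by 0.14 in FMR4 siRNA cells. None of these 4 differences passed the test. The 24 h group means were 11.38 ± 0.20 in FMR4 siRNA and 11.03 ± 0.134 in CTRL siRNA cells, and 11.11 ± 0.203 in FMR4 pcDNA3.1 and 11.09 ± 0.0232 in CTRL pcDNA3.1 cells (SD, n = 3 each). For *PSMB5* both plasmid groups thus lay nearer to CTRL siRNA than to FMR4 siRNA cells, and for *PSMD9* they lay between the siRNA groups. Each siRNA group was also fitted against both plasmid groups at 24 h. Those comparisons were added after the values were seen, and their results are not given here.

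**Figure D1:**
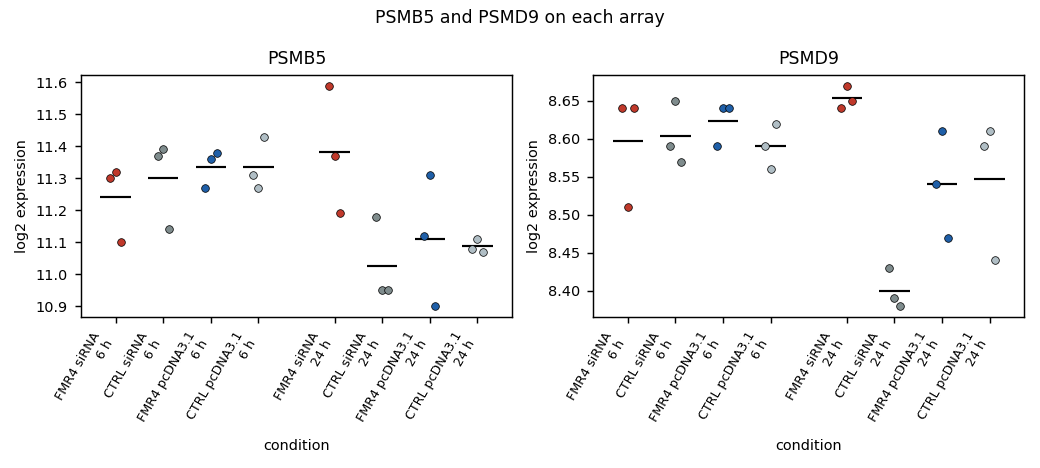
Level of *PSMB5* and *PSMD9* (log2 expression, vertical axis) on each of the 24 arrays, by condition, with the 6 h groups left of the 24 h groups. Each point is an array and each bar a group mean. At 24 h the FMR4 siRNA arrays lie above the CTRL siRNA arrays for both genes, at 11.19 to 11.59 against 10.95 to 11.18 for *PSMB5* and at 8.64 to 8.67 against 8.38 to 8.43 for *PSMD9*.

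Whether knockdown acted differently at the 2 times was tested directly. The knockdown difference was larger at 24 h than at 6 h by 0.41 for *PSMB5* (adjusted p = 0.232) and by 0.27 for *PSMD9* (adjusted p = 0.118). Neither passed, and 0 of 45 members were called in this comparison, against 1.18% of all genes. The overexpression difference minus the knockdown difference at 24 h was -0.33 for *PSMB5* (adjusted p = 0.361) and -0.26 for *PSMD9* (adjusted p = 0.0948). Again 0 of 45 members were called, against 2.12% of all genes. These comparisons share arrays with the knockdown comparison at 24 h and are not separate support for it.

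The other catalytic subunits did not pass after knockdown. *PSMB6* levels at 24 h were 12.38, 12.42 and 12.32 in FMR4 siRNA cells, against 12.32, 12.30 and 12.18 in CTRL siRNA cells, a difference of 0.10 (95% interval -0.02 to 0.22, adjusted p = 0.442). *PSMB7* levels were 11.89, 11.87 and 11.81 in FMR4 siRNA cells, against 11.82, 11.88 and 11.75 in CTRL siRNA cells, a difference of 0.04 (95% interval -0.08 to 0.17, adjusted p = 0.825). Both pairs of groups overlapped. The remaining subunits of the beta ring, which complete the ring without a proteolytic site, differed by no more than 0.04 in size at 24 h, with *PSMB4* the lowest at -0.04. In the alpha ring, differences ran from -0.13 (*PSMA1*) to 0.04 (*PSMA2*), and 4 of 7 were positive.

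The inducible counterparts of the catalytic subunits showed no rise with knockdown that passed the test. *PSMB8*, which replaces PSMB5, had levels of 5.22, 5.30 and 5.17 in FMR4 siRNA cells at 24 h and 5.20, 5.29 and 5.32 in CTRL siRNA cells, a difference of -0.04 (95% interval -0.20 to 0.12). All 6 lay below the level of mostly silent genes. *PSMB9*, which replaces PSMB6, differed by 0.02 (95% interval -0.12 to 0.17), with levels of 6.72, 6.71 and 6.62 in FMR4 siRNA cells, against 6.63, 6.72 and 6.63 in CTRL siRNA cells. *PSMB10*, which replaces PSMB7, differed by 0.03 (95% interval -0.12 to 0.18), with levels of 8.34, 8.32 and 8.57 in FMR4 siRNA cells, against 8.45, 8.33 and 8.34 in CTRL siRNA cells. *PSMB8* and *PSMB9* each had 3 probe sets with identical values on every array, so these count as a single measurement of each gene.

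The ATPase ring of the regulatory particle, which unfolds substrates, was read here without *PSMC5*. Of its 5 subunits read, 1 was positive after knockdown at 24 h. Their median was -0.11, from -0.11 (*PSMC4*) to 0.07 (*PSMC6*), and none was called. The 12 non-ATPase members, which include ubiquitin receptors and the deubiquitinase PSMD14, ran from -0.10 (*PSMD10*) to 0.26 (*PSMD9*), with 7 positive and *PSMD9* the only one called. The assembly chaperones, which pair alpha subunits before the ring closes, ran from -0.09 (*PSMG2*) to 0.13 (*PSMG1*).

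Activator subunits form alternative caps on the barrel. *PSME1* and *PSME2*, the interferon-inducible cap subunits, differed by -0.07 (95% interval -0.20 to 0.07) and 0.02 (95% interval -0.14 to 0.19) after knockdown at 24 h. The nuclear cap subunit *PSME3* differed by -0.02 (95% interval -0.13 to 0.08). *PSME4*, a single-chain nuclear activator, had levels of 11.34, 11.35 and 11.16 in FMR4 siRNA cells and 11.24, 11.11 and 11.21 in CTRL siRNA cells, a difference of 0.10 (95% interval -0.03 to 0.23, adjusted p = 0.523). *PSMF1*, which encodes a proteasome inhibitor, differed by 0.06. None of the 5 was called, and their groups overlapped.

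At 6 h, knockdown left no member past the threshold: 0 of 45 were called, against 0.0597% of all genes, and 0 had an unadjusted p under 0.05. Differences ran from -0.11 (*PSMD3*) to 0.08 (*PSMA3*), with a median of -0.024 over the members and -0.021 over all genes. The 95% intervals of the 45 members lay within -0.27 and 0.23. At 24 h those of the knockdown comparison lay within -0.26 and 0.56, and the upper bound was that of *PSMB5*.

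**Figure D2:**
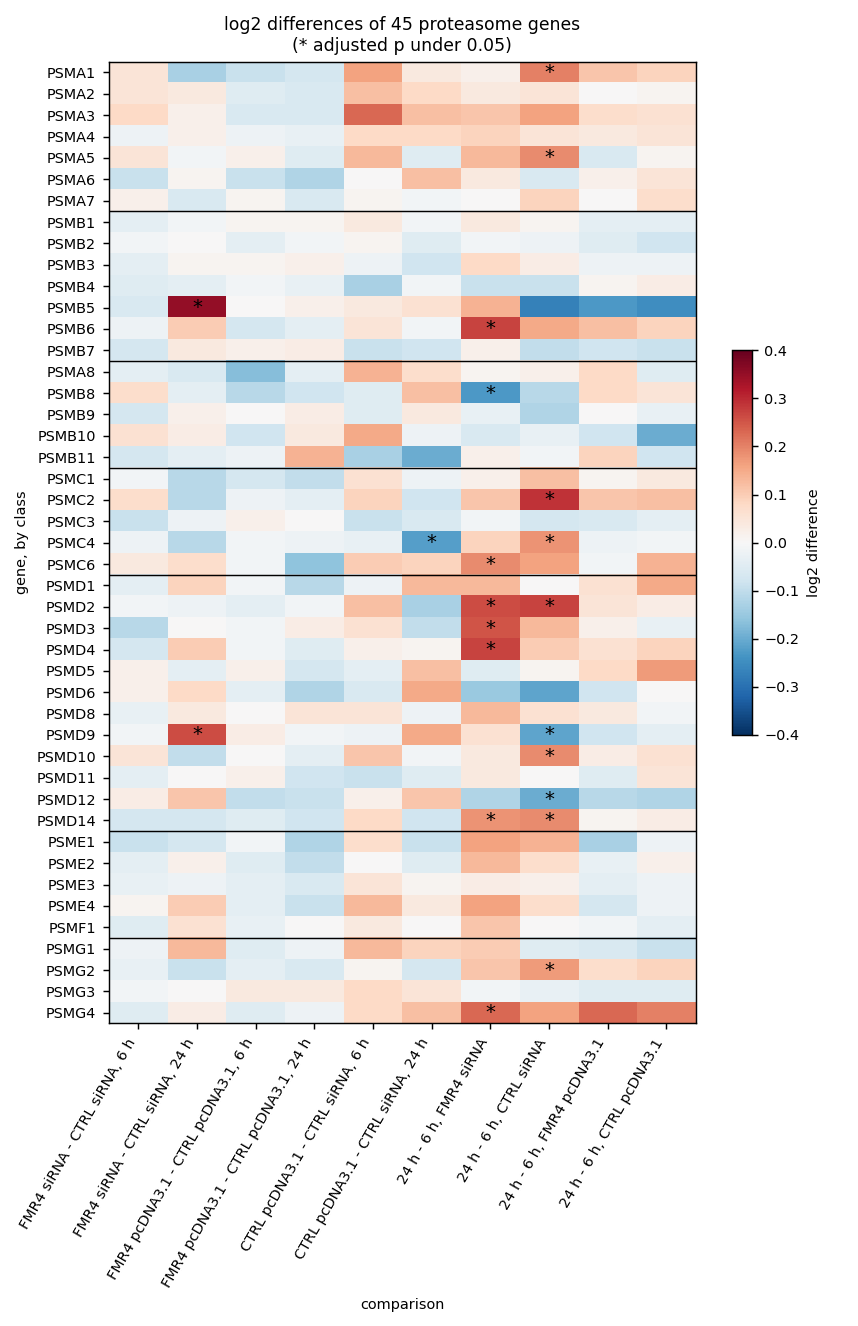
Log2 difference (colour scale, -0.4 to 0.4) of the 45 members, in rows by class, in 10 comparisons, in columns: knockdown, overexpression and the controls against each other at 6 h and 24 h, then 24 h minus 6 h in each arm. Stars mark an adjusted p under 0.05. Of the knockdown and overexpression columns, only knockdown at 24 h holds stars, at *PSMB5* (0.35) and *PSMD9* (0.26).

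Overexpression of *FMR4* called no member at either time, against 0% of all genes at 6 h and 0% at 24 h, where limma called no gene at all. A single member had an unadjusted p under 0.05 at 6 h and 1 at 24 h, and so did 373 and 602 of all genes. Differences ran from -0.17 (*PSMA8*, which lay below 6.00) to 0.04 (*PSMG3*) at 6 h, and from -0.16 (*PSMC6*, -0.11 by its other probe set) to 0.14 (*PSMB11*, also below 6.00) at 24 h. At 24 h the median was -0.04 over the members and -0.026 over all genes. All 7 alpha ring differences were negative, from -0.12 (*PSMA6*) to -0.03 (*PSMA4*), and none passed the test.

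*PSME1* levels at 24 h were 9.70, 9.66 and 9.71 with FMR4 pcDNA3.1 and 9.86, 9.82 and 9.74 with CTRL pcDNA3.1. The groups did not overlap, but the difference of -0.12 did not pass (adjusted p = 0.999). *PSME2* differed by -0.10 (95% interval -0.27 to 0.06), *PSME3* by -0.06 and *PSME4* by -0.09. The catalytic and inducible subunits lay between -0.08 (*PSMB8*) and 0.04 (*PSMB10*). Over the 45 members, the 95% intervals lay within -0.30 and 0.21 at 6 h and within -0.28 and 0.31 at 24 h.

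Genes that work with the proteasome without carrying a PSM symbol were read from a list of 29 regulators and shuttles, of which 24 were measured. They include POMP, which matures the core, the ubiquitin receptor ADRM1, the deubiquitinases USP14 and UCHL5, and NFE2L1. None of the 24 was called after knockdown or overexpression at either time, and the knockdown differences at 24 h ran from -0.19 to 0.15 with a median of 0.01. *NFE2L1* differed by 0.03 (adjusted p = 0.926) and *NFE2L2*, the related oxidative stress factor, by 0.11 (adjusted p = 0.538). *UBE3C*, a ubiquitin ligase that binds the proteasome, differed by -0.19 (adjusted p = 0.0803).

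Of 12 genes for interferon response and antigen processing, the setting in which immunoproteasomes work, 11 were measured, and 2 rose after knockdown at 24 h, where 5.88% of all genes were called. *TAP1*, a subunit of the transporter that carries proteasomal peptides into the endoplasmic reticulum, had levels of 8.54, 8.79 and 8.67 in FMR4 siRNA cells and 8.36, 8.28 and 8.33 in CTRL siRNA cells. The groups did not overlap, and the difference was 0.35 (SE 0.084, adjusted p = 0.0129). It was not called without CTRL siRNA replicate 2 (adjusted p = 0.0675) or FMR4 siRNA replicate 2 (adjusted p = 0.0985). *TAPBP*, which bridges that transporter to class I molecules, had levels of 9.24, 9.54 and 9.54 in FMR4 siRNA cells and 9.24, 9.07 and 9.10 in CTRL siRNA cells. The groups met at 9.24, and the difference was 0.31 (SE 0.082, adjusted p = 0.0271). The *TAPBP* call was lost without replicate 2 or 3 of either group (adjusted p up to 0.155), with only the arrays compared in the fit (adjusted p = 0.0982) and with adjustment over all probe sets (adjusted p = 0.0527). The 9 other genes were not called, and the median over the 11 was 0.08.

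More members were called between the 2 times than after knockdown. In FMR4 siRNA cells 7 members rose and 1 fell between 6 and 24 h, 8 of 45 (17.8%), against 16.7% of all genes. In CTRL siRNA cells 8 rose and 2 fell, 10 of 45 (22.2%), against 18.5% of all genes. Both shares were near those over all genes. The median difference was 0.062 over the members and 0.009 over all genes in FMR4 siRNA cells, and 0.032 over the members and -0.008 over all genes in CTRL siRNA cells. Of the 45 members, 27 were higher at 24 h in both siRNA groups. The same count was not made over all genes, so it does not set the members apart. Without 1 array the count in FMR4 siRNA cells was 4 (without 6 h replicate 3 or 24 h replicate 2) or 5 (without 24 h replicate 1), and in CTRL siRNA cells it was 3 (without 6 h replicate 1) or 6 (without 24 h replicate 1). With only the arrays compared in the fit, 0 members were called in FMR4 siRNA and 5 in CTRL siRNA cells.

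Of the 17 ATPase and non-ATPase members, 5 rose in FMR4 siRNA cells, where 2263 of the 18417 genes rose and 805 fell (16.7% called). The 5 include *PSMC6*, whose call depended on the probe set, as given below. In CTRL siRNA cells 5 rose and 2 fell, where 1804 of all genes rose and 1612 fell (18.5% called). No test set these members apart from the others. *PSMD2*, a large scaffold subunit of the base, rose in both groups. Its levels in FMR4 siRNA cells were 10.86, 10.74 and 10.75 at 24 h and 10.58, 10.52 and 10.46 at 6 h, a difference of 0.26 (SE 0.061, adjusted p = 0.00568). In CTRL siRNA cells they were 10.82, 10.85 and 10.74 at 24 h and 10.52, 10.66 and 10.43 at 6 h, a difference of 0.27 (SE 0.061, adjusted p = 0.00403). In each group all arrays of 24 h lay above all arrays of 6 h. *PSMD14*, the deubiquitinase of the lid, was called in both groups too, by 0.18 in FMR4 siRNA cells (adjusted p = 0.03) and 0.19 in CTRL siRNA cells. These 2 genes were the whole overlap, 25% of the members called in FMR4 siRNA cells and 20% of those called in CTRL siRNA cells. The overlap was not counted over all genes, and it does not show that the siRNA groups changed differently over time. The direct test of that is the knockdown difference between times, given above, which called 0 of 45 members. The *PSMD14* call was lost in FMR4 siRNA cells without 6 h replicate 3 (adjusted p = 0.15) or 24 h replicate 1 (adjusted p = 0.0912) or 2 (adjusted p = 0.106), and in CTRL siRNA cells without 6 h replicate 1 (adjusted p = 0.137) or 24 h replicate 1 (adjusted p = 0.0667) or 2 (adjusted p = 0.0784).

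Further rises in FMR4 siRNA cells were those of *PSMB6*, *PSMD4*, *PSMD3*, *PSMG4* and *PSMC6*. *PSMB6* had levels of 12.38, 12.42 and 12.32 at 24 h and 12.12, 12.06 and 12.11 at 6 h, a difference of 0.27 (SE 0.058, adjusted p = 0.00269). *PSMD4*, a ubiquitin receptor, had levels of 9.0, 8.95 and 8.96 at 24 h and 8.77, 8.69 and 8.64 at 6 h, a difference of 0.27 (SE 0.066, adjusted p = 0.00645). All 24 h arrays of both genes were above all 6 h arrays. *PSMC6* had a second probe set, for which the difference was 0.14 (adjusted p = 0.201) in place of 0.19 (adjusted p = 0.03), so its call depended on the probe set. RefSeq lists pseudogenes of *PSMC6* and of *PSMC1*, which also had 2 probe sets. Both genes lie on chromosome 14, and the probe set numbers of the other members ran by chromosome. For both genes the probe set used was numbered outside the run of chromosome 14, and the other probe set within it. The *PSMC6* difference of 0.14 is from the one within it. The probe sets used may therefore read copies elsewhere, which was not tested. Leaving out 1 of the 6 arrays ended the call of *PSMC6* in 3 cases and of *PSMG4* in 4, and that of *PSMB6*, *PSMD2*, *PSMD3* and *PSMD4* in 0. *PSMB8* was the member that fell, with 5.22, 5.30 and 5.17 at 24 h and 5.38, 5.56 and 5.44 at 6 h, a difference of -0.23 (SE 0.077, adjusted p = 0.0454), but all 6 levels were below that of mostly silent genes. The *PSMB8* call was lost without 6 h replicate 2 (adjusted p = 0.18) or 3 (adjusted p = 0.0695), and without 24 h replicate 1 (adjusted p = 0.105), 2 (adjusted p = 0.0559) or 3 (adjusted p = 0.124).

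Further rises in CTRL siRNA cells were those of *PSMC2*, *PSMA1*, *PSMD10*, *PSMA5*, *PSMC4* and *PSMG2*, by 0.17 to 0.29. Leaving out 1 of the 6 arrays ended the call of *PSMG2* in 6 cases, of *PSMC4* in 3, of *PSMA5* in 2 and of *PSMD10* in 1. *PSMC2*, an ATPase, had levels of 12.08, 12.04 and 12.01 at 24 h and 11.69, 11.87 and 11.70 at 6 h, a difference of 0.29 (SE 0.072, adjusted p = 0.00789). *PSMA1*, an alpha ring subunit, had levels of 12.05, 12.07 and 12.04 at 24 h and 11.77, 11.87 and 11.93 at 6 h, a difference of 0.20 (SE 0.052, adjusted p = 0.00973), which was not called without 6 h replicate 1 (adjusted p = 0.0682). The members that fell were *PSMD9*, given above, and *PSMD12*, a lid subunit. *PSMD12* levels were 10.62, 10.59 and 10.67 at 24 h and 10.84, 10.73 and 10.93 at 6 h, a difference of -0.20 (SE 0.065, adjusted p = 0.0321). The *PSMD12* call was lost without 6 h replicate 1 (adjusted p = 0.0801) or 3 (adjusted p = 0.177), and without 24 h replicate 1 (adjusted p = 0.0858) or 2 (adjusted p = 0.0981).

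In plasmid-transfected cells no member was called over time, against 6.33% of all genes in FMR4 pcDNA3.1 and 5.76% in CTRL pcDNA3.1 cells. The lowest adjusted p was that of *PSMG4*, an assembly chaperone, in each arm (0.23, adjusted p = 0.0533 in FMR4 pcDNA3.1 cells and 0.20, adjusted p = 0.0912 in CTRL pcDNA3.1 cells). Its levels were 7.51, 7.52 and 7.67 at 24 h and 7.33, 7.35 and 7.33 at 6 h with FMR4 pcDNA3.1. With CTRL pcDNA3.1 they were 7.66, 7.53 and 7.59 at 24 h and 7.36, 7.32 and 7.49 at 6 h. The groups did not overlap in either arm. The change over time in CTRL pcDNA3.1 cells minus that in CTRL siRNA cells called 0 of 45 members, against 1.12% of all genes, with the lowest adjusted p for *PSMD2* (-0.24, adjusted p = 0.163). The same difference between FMR4 siRNA and FMR4 pcDNA3.1 cells was not tested.

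**Figure D3:**
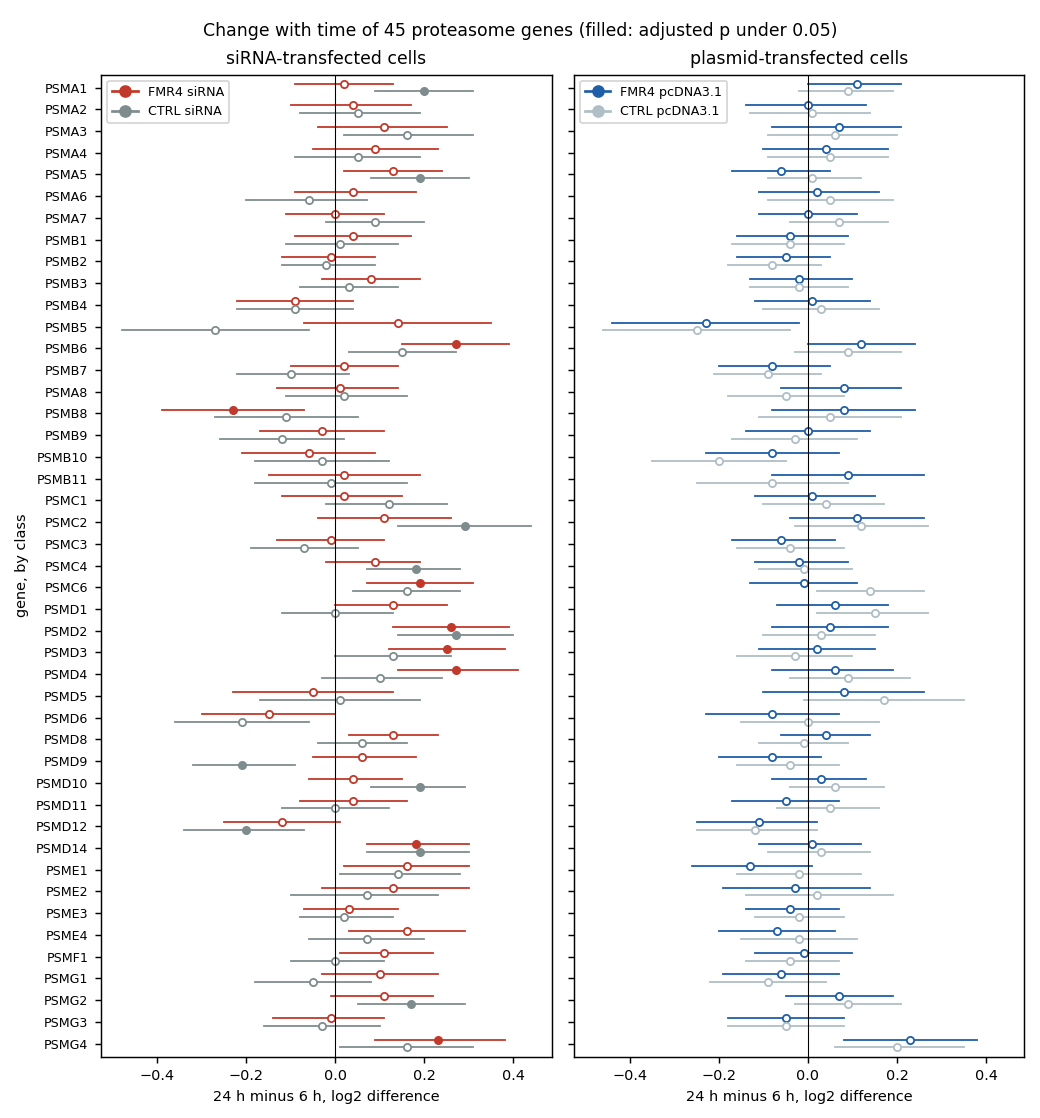
Change with time (24 h minus 6 h, log2 difference, horizontal axis) of the 45 members, in rows by class, in siRNA-transfected (left) and plasmid-transfected (right) cells. Points are fitted differences, lines 95% intervals, and filled points have an adjusted p under 0.05. Filled points number 8 in FMR4 siRNA and 10 in CTRL siRNA cells, and none in the plasmid arms.

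Of the 24 regulators and shuttles, 3 rose and 1 fell over time in FMR4 siRNA cells, against 16.7% of all genes called, and 2 rose and 1 fell in CTRL siRNA cells, against 18.5%. *NFE2L2* rose in both, by 0.41 (SE 0.073, adjusted p = 0.000568) in FMR4 siRNA and 0.32 (SE 0.073, adjusted p = 0.00367) in CTRL siRNA cells, and its call in FMR4 siRNA cells was lost with only the arrays compared in the fit (adjusted p = 0.103). *NFE2L1* fell in CTRL siRNA cells, by 0.31 (SE 0.097, adjusted p = 0.0281), and differed by -0.13 in FMR4 siRNA cells (adjusted p = 0.417). Its fall was not called without 6 h replicate 1 (adjusted p = 0.0537) or 3 (adjusted p = 0.129), or without 24 h replicate 2 (adjusted p = 0.081) or 3 (adjusted p = 0.0944), and it was lost with only the siRNA arm in the fit (adjusted p = 0.119) and with adjustment over all probe sets (adjusted p = 0.0501). *PAAF1*, a protein that restrains joining of the regulatory particle to the core, rose in both plasmid arms, by 0.34 in FMR4 pcDNA3.1 (adjusted p = 0.0148) and 0.38 in CTRL pcDNA3.1 cells (adjusted p = 0.00768). Its call was lost in FMR4 pcDNA3.1 cells without 6 h replicate 1 (adjusted p = 0.0813) or 2 (adjusted p = 0.0739) or 24 h replicate 1 (adjusted p = 0.073) or 3 (adjusted p = 0.0759), and in CTRL pcDNA3.1 cells without 6 h replicate 1 (adjusted p = 0.0543). These 3 genes were singled out after their values were seen.

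The control groups were compared with each other, since the plasmid and siRNA transfections differ apart from *FMR4*. At 6 h, CTRL pcDNA3.1 minus CTRL siRNA called 0 of 45 members, against 3.3% of all genes, and the lowest adjusted p was 0.0634 for *PSMA3*, an alpha ring subunit, with a difference of 0.23. All 7 alpha ring differences were at or above 0.00. At 24 h it called 1 of 45 members, against 4.48% of all genes. This was *PSMC4*, an ATPase, with 12.21, 12.17 and 12.13 in CTRL pcDNA3.1 cells and 12.42, 12.40 and 12.34 in CTRL siRNA cells, a difference of -0.22 (SE 0.05, adjusted p = 0.0124). FMR4 siRNA arrays at 24 h lay between these groups for *PSMC4*, at 12.23, 12.33 and 12.27. The call was lost without CTRL siRNA replicate 1 (adjusted p = 0.0667) or CTRL pcDNA3.1 replicate 2 (adjusted p = 0.053) or 3 (adjusted p = 0.069), and with only the arrays compared in the fit (adjusted p = 0.0563).

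Array by array, the members showed no common shift with *FMR4* that separated the groups. The median over the 45 members of a gene's deviation from its mean over the 24 arrays lay between -0.055 and -0.019 on FMR4 siRNA arrays and between -0.045 and -0.005 on CTRL siRNA arrays at 6 h. At 24 h it lay between -0.025 and 0.06 on FMR4 siRNA arrays and between 0 and 0.024 on CTRL siRNA arrays. In plasmid cells at 6 h it lay between -0.033 and 0.032 with FMR4 pcDNA3.1 and between 0.015 and 0.025 with CTRL pcDNA3.1. At 24 h it lay between -0.048 and 0.017 with FMR4 pcDNA3.1 and between -0.008 and 0.053 with CTRL pcDNA3.1. The FMR4 and CTRL arrays overlapped in each of these 4 pairs. Over all genes the same median lay between -0.043 and 0.032.

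**Figure D4:**
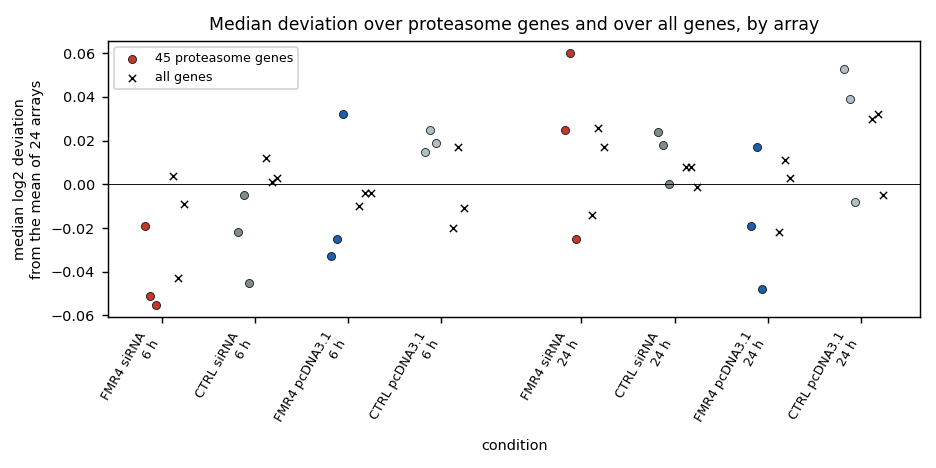
Median log2 deviation of the 45 members and of all genes from their own mean over the 24 arrays (vertical axis), for each array by condition. Each point is an array. The members lie between -0.055 and 0.06 and all genes between -0.043 and 0.032.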

How the data were processed

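The authors deposited 1 table of log2 expression values for 33297 probe sets on 24 arrays, normalized with GCRMA according to the submitters' processing notes (version not given in the sources used here). The submitters' design text calls the 3 replicates of a group biological, each a pool of 3 technical replicates. P-values therefore measure the spread between these samples of 1 cell line. Of the probe sets, 21214 carried a gene in the platform annotation, 19460 of them 1 symbol and 1754 several, and 12083 were unnamed here. The values were used as deposited, with no filter. The members, the gene lists and the rules for naming genes were chosen with earlier results of these data known.

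A single limma fit (3.58.1, R 4.3.3) gave each of the 8 groups its mean, over the 24 arrays together, and left 16 degrees of freedom for the spread. Tests were two-sided moderated contrasts, with Benjamini-Hochberg adjustment over the 21214 probe sets within each comparison, and a call needed an adjusted p under 0.05. The fit was also run on simulated data with known changes, and the share recovered is not reported here. Shares of all genes count 1 probe set for each of 18417 genes, in either direction. Named with values were members called after knockdown or overexpression, the 3 of lowest adjusted p each way among those called between times or controls, catalytic, inducible and activator subunits, and listed partner genes called after knockdown or overexpression. Others are given where a range or count turned on them. Alternatives changed the arrays fitted, the normalization, the moderation, array weights, a filter on dim probe sets, the probe set for a gene, the adjustment and a replicate block, and left out each array in turn.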

Additional observations from a re-analysis of the deposited data

How the results depend on the processing

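No result changed sign in a way that reversed a call. The count of members called after knockdown at 24 h, 2 in the report, was 1 with only the arrays of that time fitted, 1 with only the arrays compared, 1 after quantile normalization, 1 with adjustment over all probe sets, and 1 to 2 with an array left out. The count over time in FMR4 siRNA cells, 8 in the report, was 3 with only the siRNA arm fitted, 0 with only the arrays compared, and 4 to 10 with an array left out. In CTRL siRNA cells, 10 in the report, it was 1 with only the arm fitted, 5 with only the arrays compared, and 3 to 10 with an array left out. Over time in FMR4 pcDNA3.1 cells, 0 in the report, it was 1 with the arm, with the arrays compared, with array weights and with dim probe sets left out. In CTRL pcDNA3.1 cells, 0 in the report, it was 1 with the arm, 1 with the arrays compared, 1 with arrays centred on their medians and 2 with array weights. Between the controls at 6 h, 0 in the report, it was 1 with the arrays compared, 2 with trend and robust moderation and 3 with array weights, and at 24 h, 1 in the report, it was 0 with the arrays compared and 0 to 1 with an array left out. The difference in knockdown between times called 1 with array weights and 0 to 1 with an array left out (1 without FMR4 siRNA 6 h replicate 3). Overexpression minus knockdown at 24 h called 2 with array weights and 0 to 1 with an array left out (1 without CTRL pcDNA3.1 24 h replicate 3). The causes were not tested. Fits to fewer arrays have fewer residual degrees of freedom, and they also estimate the spread from those arrays alone, so standard errors can differ too. Counts of the other comparisons (knockdown at 6 h, overexpression at both times, the control time difference) stayed at 0. Called values of the members, of *TAP1*, *TAPBP*, *NFE2L1*, *NFE2L2* and *PAAF1*, and of *NEFM* after knockdown kept their call in 362 of 463 alternatives, and of 40 uncalled values 1 became called in 636 alternatives, *NFE2L1* over time in FMR4 siRNA cells without 6 h replicate 1 (-0.25, adjusted p = 0.0461).

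The labels number the replicates 1 to 3 in every group, and arrays of the same number deviated from their group means with correlations of -0.37 to 0.46 over 30 pairs, of which 5 exceeded 0.1, so the numbers were not taken to pair the arrays. With the number as a replicate block, the members called were 0 for knockdown at 6 h, 2 for knockdown at 24 h, 0 for overexpression at either time, 8 and 10 over time in FMR4 siRNA and CTRL siRNA cells, 1 in FMR4 pcDNA3.1 and 0 in CTRL pcDNA3.1 cells. The block ended the calls of *TAPBP* after knockdown at 24 h (adjusted p = 0.0574) and of *PSMG2* over time in CTRL siRNA cells (adjusted p = 0.0708). The block across times or arms was chosen after seeing the data, since a block within a time and arm cannot estimate those differences. Only 3 arrays a group limit the precision.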
